A study of Homo sapiens with 6 samples.

Results

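The unfolded protein response genes described here are HSPA5, HSP90B1, DDIT3, ATF4, ATF6, XBP1, HERPUD1, PDIA4, DNAJB9 and CALR. They were chosen by name, with earlier results of these data known. They are 10 of the 16428 genes to which the authors assigned a region in at least 1 of 4 lists. Of the 271336 listed regions, 200 were assigned to them. RPB1, the largest subunit of RNA polymerase II, and RPB1 phosphorylated at serine 2 of its C-terminal repeats (pSer2 RPB1) were mapped by ChIP-seq in HepG2 cells, a line derived from a human liver tumor. The WT cells were labelled SHP-1-WT (CRISPR control), and the SHP-1 KO cells (KO cells hereafter) had been edited in PTPN6, the gene of the tyrosine phosphatase SHP-1. Both were untreated. The study's methods describe its CRISPR lines as grown from single cells, so a difference between genotypes cannot be told apart from a difference between clones. There was 1 library per antibody and cell type, so no difference given here has a replicate check and no test was run.

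The unfolded protein response is the set of signals that a cell starts when unfolded proteins collect in the endoplasmic reticulum (ER). Sensors in the ER membrane, among them ATF6 and the kinases encoded by ERN1 and EIF2AK3, lead to the active transcription factors ATF6, XBP1 and ATF4, which raise the transcription of ER chaperones, folding enzymes, degradation factors and DDIT3. Hepatocytes secrete large amounts of protein, and several of these genes are transcribed in them without any added stress. Polymerase with phosphorylated serine 2 is the elongating form, which is known to build up toward and beyond the 3′ ends of genes.

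Each listed region carries the fold enrichment of ChIP over input at its highest point, the summit. This is a ratio made by the peak caller, and it averages over all cells of a culture, so that polymerase in fewer cells and less polymerase per cell cannot be told apart. The libraries differed in depth. A base of the genome was covered by 0.997 fragments on average in the WT RPB1 library, 0.894 in the SHP-1 KO RPB1 library, 2.94 in the WT pSer2 library and 3.53 in the SHP-1 KO pSer2 library. Of 10 hepatocyte marker genes, 9 in WT and 8 in KO cells had an RPB1 region at their promoter, against 1 and 0 of 5 leukocyte markers, 1 and 1 of 3 endothelial markers and 1 and 1 of 4 fibroblast or stellate cell markers. At PTPN6, the strongest assigned RPB1 region had a fold enrichment of 24.0 in WT and 17.2 in KO cells, and the strongest pSer2 region 4.03 and 5.24. Loss of SHP-1 was tested by the authors by immunoblotting, and the guide sites in KO clones were sequenced. Polymerase at PTPN6 does not replace these.

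Several of the genes had promoter elements named for this response. The elements were searched because they are known from it, so the shares below are a description and not a test. The ER stress response element, CCAAT and CCACG with 9 bases between them, was searched on both strands of RefSeq promoter windows (GRCh38.p14, 250 bases before to 50 bases after each start). It was present in 27 of 35116 windows, or 0.0769%, and 4 of the 10 genes had it: HSPA5, HSP90B1, CALR and XBP1. The ER stress response element II, ATTGG and CCACG with 1 base between them, was present in 19 windows (0.0541%), and HERPUD1 had it. These stretches are shown because they lie under the RPB1 regions described below. Each is written 5′ to 3′ on the strand of its gene, and capitals mark the fixed letters of the element, which read as their reverse complement where the element is on the other strand.
HSPA5, chr9:125241383-125241449, minus strand: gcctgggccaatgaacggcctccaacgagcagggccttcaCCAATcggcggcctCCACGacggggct
HSP90B1, chr12:103930211-103930239, plus strand: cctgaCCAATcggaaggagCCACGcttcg
HSP90B1, chr12:103930316-103930344, plus strand: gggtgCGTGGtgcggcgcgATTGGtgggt
CALR, chr19:12938359-12938442, plus strand: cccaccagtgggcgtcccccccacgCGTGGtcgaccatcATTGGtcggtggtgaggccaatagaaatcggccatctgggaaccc
XBP1, chr22:28800598-28800661, minus strand: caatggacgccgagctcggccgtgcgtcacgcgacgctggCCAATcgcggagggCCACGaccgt
HERPUD1, chr16:56931985-56932075, plus strand: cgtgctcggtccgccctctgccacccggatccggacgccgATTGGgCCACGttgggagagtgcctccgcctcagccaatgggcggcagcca

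The element began 66 bases before the RefSeq start in HSPA5, 52 in XBP1, 194 and 89 in HSP90B1, 225 in CALR and 117 in HERPUD1. In both cell types, the strongest RPB1 region at each of these genes contained its element. In WT cells the RPB1 summit lay 96 bp past the centre of the element in HSPA5, 82 bp in XBP1, 143 bp in HERPUD1, 254 bp in CALR, and 225 and 120 bp in HSP90B1. The core of the unfolded protein response element, TGACGTGG, was in 0.729% of the windows and in 0 of the 10. The core of the C/EBP-ATF response element, TGATGNAA, was in 3.62% of the windows and in 1 of the 10, HERPUD1, where it ended 169 bases before the start. CCAAT alone was in 34.6% of all windows and in 8 of the 10. These are matches of letters, and no factor was measured.

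The first question was which regions the lists give for the 10 genes. The authors' assignment gave 65 regions for RPB1 in WT cells, 45 for RPB1 in KO cells, 54 for pSer2 in WT cells and 36 for pSer2 in KO cells. Fewer regions did not mean less RPB1 coverage. The assigned RPB1 regions covered 91.1 kb in WT and 107 kb in KO cells, and the longest was 11.6 kb in WT and 20.3 kb in KO cells. For pSer2, the assigned regions covered 122 kb in WT and 99.2 kb in KO cells, but regions taken by position, as set out below, covered 130 kb and 138 kb. At HERPUD1, for example, the WT RPB1 list held 4 regions over 18.8 kb and the SHP-1 KO list 1 region over 20.3 kb.

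The assignment hid some of the strongest regions. CALR and DDIT3 had 0 assigned RPB1 regions, and in the SHP-1 KO pSer2 list they had 0 regions as well. Regions nevertheless lay over both genes in every list, most of them assigned to neighbors. These neighbors, and MARS1 below, were chosen for naming after their values had been seen. The RPB1 region over CALR was assigned to MIR6515, a microRNA gene within CALR, in both lists. The RPB1 region over DDIT3 was assigned to MBD6, which starts 2310 bp from the start of DDIT3. The region at the start of HSP90B1 was assigned to MIR3652, 15 bp past that start, and the region at the start of DNAJB9 to THAP5, whose start lies 168 bp away on the other strand. Regions were therefore also taken by position, from 3 kb upstream of each gene to its end in GENCODE release 44, and by position all 10 genes had a region in all 4 lists. Other genes had been assigned 8 of 54 such RPB1 regions in WT and 8 of 36 in KO cells, and 13 of 48 and 9 of 29 such pSer2 regions. Unless stated, the values of single genes below are by position.

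The genes held strong RPB1 and pSer2 regions, except ATF6. The strongest RPB1 region at the genes had a median fold enrichment of 58.1 in WT and 57.5 in KO cells, against 29.4 and 21.1 over all protein-coding genes with a region. In the WT list 8 of the 10 genes had a region among the strongest 5%, where 21.6% of all genes did, and in the SHP-1 KO list 9 of the 10 did, against 20.1%. The RPB1 summit lay within 1 kb of the start at 10 of 10 genes in WT and 9 of 10 in KO cells, where it lay there at 77.9% and 78.6% of all genes. For pSer2, the median of the 10 genes was 17.2 in WT and 19.3 in KO cells, against 6.10 and 5.91 over all genes. Among the strongest 1% of pSer2 regions, 7 of the 10 genes had a region in WT and 8 in KO cells, against 11.6% and 10.1% of all genes. These shares describe 1 library each.

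**Figure D1:**
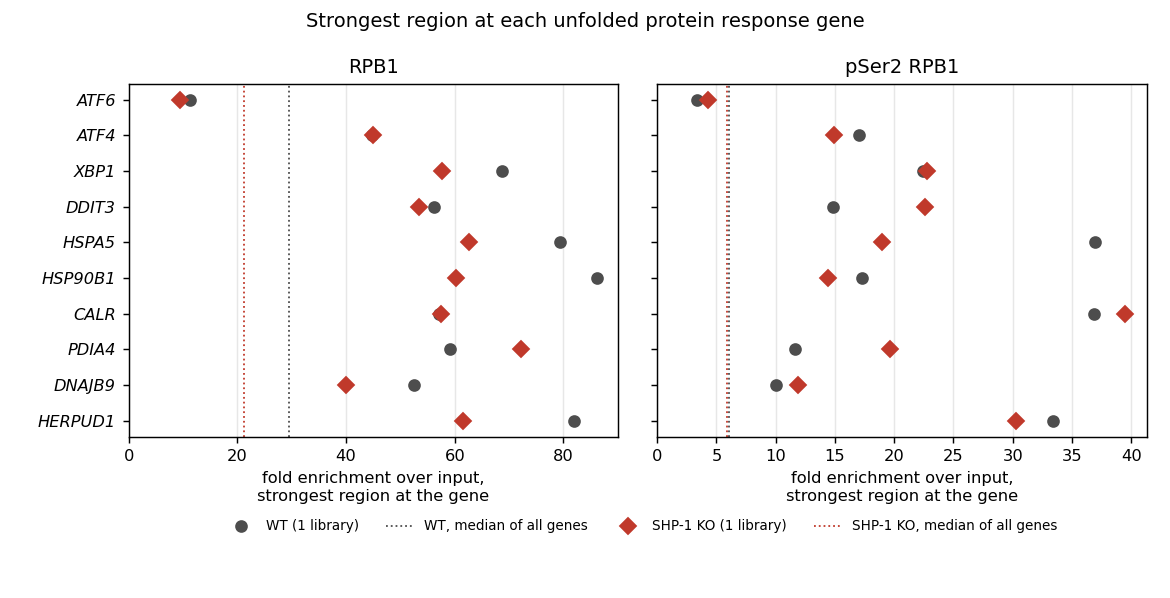
Fold enrichment over input (x axis, linear) of the strongest RPB1 region (left) and pSer2 RPB1 region (right) at each of the 10 genes, by position, with 1 point per library and dotted lines at the median of all genes. All genes except ATF6 lie above the dotted lines, and CALR reaches 39.5 for pSer2 in KO cells.

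Among the transcription factors, XBP1, the factor that is activated by splicing of its messenger RNA, had the strongest RPB1 region. RPB1 reached a fold enrichment of 68.7 in WT and 57.6 in KO cells, at ranks 466 of 46045 and 345 of 41605. Its pSer2 fold enrichment was 22.4 in WT and 22.8 in KO cells, with the summits 1123 and 487 bp past the 3′ end. XBP1 lies at chr22:28794555-28800597 (minus strand) in GRCh38. Each list held it in 1 region between 10.8 and 11.1 kb long that ran over the whole gene and beyond.

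ATF4, which drives genes of amino acid supply and redox balance, had an RPB1 fold enrichment of 44.8 in WT and 44.95 in KO cells, with the summits 600 and 631 bp upstream of the canonical start. For pSer2 the values were 17.0 and 14.9, and the summits lay 358 and 361 bp past the 3′ end. The gene lies at chr22:39519695-39522683 (plus strand) and is 2.99 kb long. Weaker pSer2 regions lay over its start and body, and pSer2 regions covered 89.2% of the gene with its 3 kb upstream in WT and 97.3% in KO cells.

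DDIT3 encodes CHOP, a factor linked to cell death under long ER stress, at chr12:57516588-57521737 (minus strand). At its start, RPB1 had a fold enrichment of 56.1 in WT and 53.4 in KO cells, with the summits 75 and 34 bp past that start. Its pSer2 fold enrichment was 14.9 in WT and 22.6 in KO cells. The place of the pSer2 summit differed between the lists, at 72 bp past the start in WT and 117 bp past the 3′ end in KO cells. The 3′ ends of DDIT3 and of MARS1, which is transcribed toward it, overlap, so the SHP-1 KO summit cannot be given to 1 of these genes.

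ATF6, the membrane-bound sensor that becomes a transcription factor after cleavage, had low values in every list. It lies at chr1:161766298-161977574 (plus strand). It had 1 RPB1 region in each list, with a fold enrichment of 11.2 in WT and 9.45 in KO cells, 41 and 58 bp past the start. Its strongest pSer2 region had a fold enrichment of 3.35 in WT, in an intron, and 4.29 in KO cells, 2109 bp past the end of the canonical transcript. ATF6 is also the longest of the genes, at 211 kb, and listed regions covered 0.252% of it with its 3 kb upstream in the WT RPB1 list.

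In WT cells HSP90B1, HERPUD1 and HSPA5 had the highest RPB1 values of the 10 genes, in this order. HSPA5 encodes BiP, the main Hsp70 chaperone of the ER and the brake on the ER stress sensors, at chr9:125234853-125241382 (minus strand). The RPB1 value of HSPA5 was 79.3 in WT and 62.6 in KO cells (ranks 194 and 225), with the summits 39 and 35 bp past the start. The pSer2 value was 37.0 in WT, at rank 6 of 102674 regions, and 19.0 in KO cells, at rank 207 of 81012. Both pSer2 summits lay in the last exon, 8, in the 3′ UTR and 1 bp from each other. RABEPK, named after the values were seen, is transcribed toward HSPA5 from chr9:125200542-125234161 (plus strand). Its end lies within the pSer2 region of both lists, and its part in these values was not tested.

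HSP90B1 encodes GRP94, the Hsp90 chaperone of the ER, at chr12:103930107-103953931 (plus strand). The RPB1 value was 86.2 in WT and 60.2 in KO cells, 40 and 77 bp past the start. For pSer2 it was 17.3 in WT and 14.4 in KO cells. These summits lay 1666 and 1556 bp past the end of the canonical transcript, but within the gene span given above. Under the authors' assignment, the strongest pSer2 region of HSP90B1 in KO cells had a fold enrichment of only 3.16, because the region of 24.7 kb that covers the gene was assigned to MIR3652.

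CALR encodes calreticulin, a lectin chaperone that also holds calcium, at chr19:12938578-12944489 (plus strand). RPB1 stood at 57.1 in WT and 57.4 in KO cells. The summit lay 38 bp past the start in WT and 1286 bp past the 3′ end in KO cells. The pSer2 fold enrichment was 36.9 in WT, at rank 7, and 39.5 in KO cells, the highest of that list. These pSer2 summits lay 1165 and 1172 bp past the end of CALR. The KO RPB1 summit and both pSer2 summits thus lay outside the gene, and these values cannot be given to CALR alone.

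PDIA4, a protein disulfide isomerase that forms and reshuffles disulfide bonds, had higher values in KO cells with both antibodies. It lies at chr7:149003062-149028662 (minus strand). Its RPB1 fold enrichment was 59.2 in WT (rank 906) and 72.2 in KO cells (rank 109), 109 and 133 bp past the start. Its pSer2 fold enrichment was 11.6 in WT (rank 1354) and 19.6 in KO cells (rank 177), and both summits lay in intron 1, 77 bp from each other. The assigned pSer2 regions of PDIA4 had a median fold enrichment of 6.33 over 12 regions in WT and 12.8 over 7 regions in KO cells. RPB1 regions covered 48.2% of PDIA4 and its 3 kb upstream in WT and 82.6% in KO cells.

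DNAJB9 encodes ERdj4, a co-chaperone that helps BiP to bind the sensor encoded by ERN1, at chr7:108569867-108574850 (plus strand). The RPB1 value was 52.4 in WT and 39.9 in KO cells, with both summits in exon 1. This start is shared with the divergent gene THAP5, so the RPB1 value cannot be given to 1 of them. The pSer2 fold enrichment of DNAJB9 was 10.0 in WT and 11.9 in KO cells, 1372 and 856 bp past the 3′ end.

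HERPUD1, a membrane protein of the machinery that degrades misfolded ER proteins, was strong in every list. It lies at chr16:56932142-56944864 (plus strand). Its RPB1 fold enrichment was 81.9 in WT and 61.5 in KO cells, 31 and 63 bp past the start. Its pSer2 fold enrichment was 33.4 in WT, at rank 17, and 30.3 in KO cells, at rank 9. Both pSer2 summits lay beyond the gene, 2325 and 2277 bp past the 3′ end.

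The summits of both antibodies lay at opposite ends of most of the genes. The pSer2 summit lay past the end of the canonical transcript at 6 of 10 genes in WT and 8 of 10 in KO cells. Of all genes, 24.5% and 23.5% had it there. At HSP90B1 in both lists, and at ATF6 in KO cells, this was still within the annotated gene span. It lay within 1 kb of the start at 1 of 10 genes in WT and at 0 of 10 in KO cells, against 21.4% and 23.3% of all genes. Under the authors' annotation, the strongest assigned pSer2 region was called promoter at 6 of 10 genes in WT and 5 of 8 in KO cells.

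**Figure D2:**
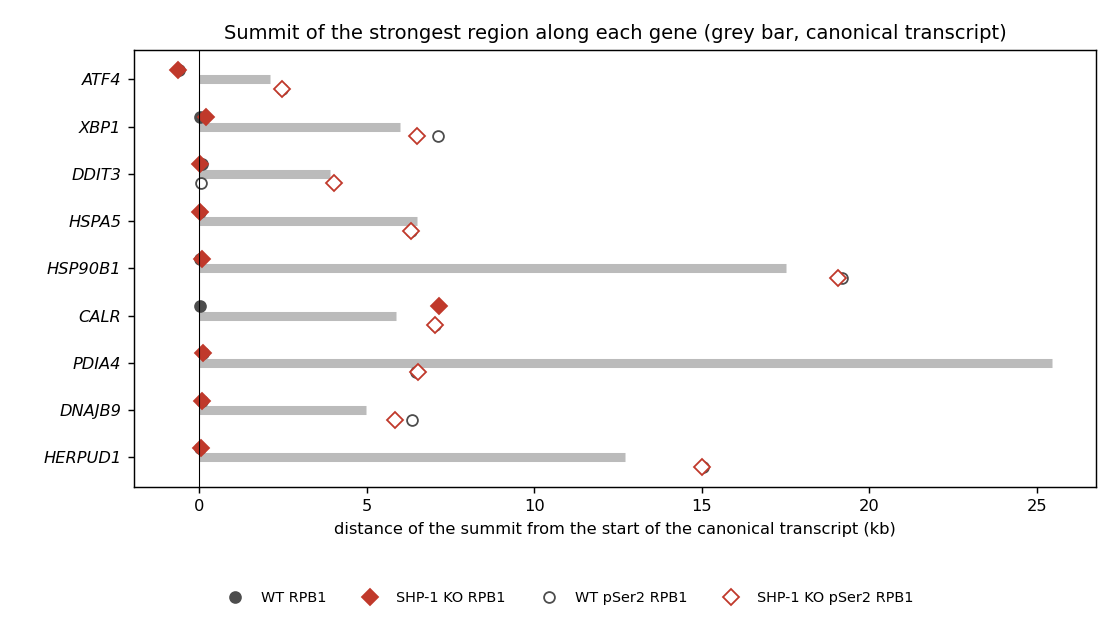
Distance of the summit of the strongest region from the start of the canonical transcript (x axis, kb) at 9 genes, for the 4 libraries; grey bars show the canonical transcripts, and ATF6 is left out for its length. Filled RPB1 points lie within 1 kb of the starts except CALR in KO cells, and open pSer2 points lie near or past the 3′ ends except PDIA4 and, in WT cells, DDIT3.

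The listed regions ran over most of the length of the genes. For RPB1, a median of 78.7% of the gene and its 3 kb upstream was covered in WT and 84.6% in KO cells, and for pSer2 85.3% and 82.5%. Over all genes with a region, the medians were 5.42% and 4.79% for RPB1 and 9.60% and 7.92% for pSer2. The genes described here are short, with a median of 9.29 kb for gene and upstream stretch against 34.5 kb over all genes in the WT RPB1 list, and how much of the difference in coverage goes with length was not tested. RPB1 coverage was higher in KO cells at 8 of the 10 genes and lower at 2, DDIT3 (94.1% in WT and 86.5% in KO cells) and CALR (82.7% and 81.7%). It differed most at HSP90B1 (52.3% and 93.3%), PDIA4 and DNAJB9 (28.1% and 53.5%). For pSer2, coverage was higher in KO cells at 7 genes and lower at 3. The share of all genes with higher coverage in KO cells was not computed, so these counts have no baseline.

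**Figure D3:**
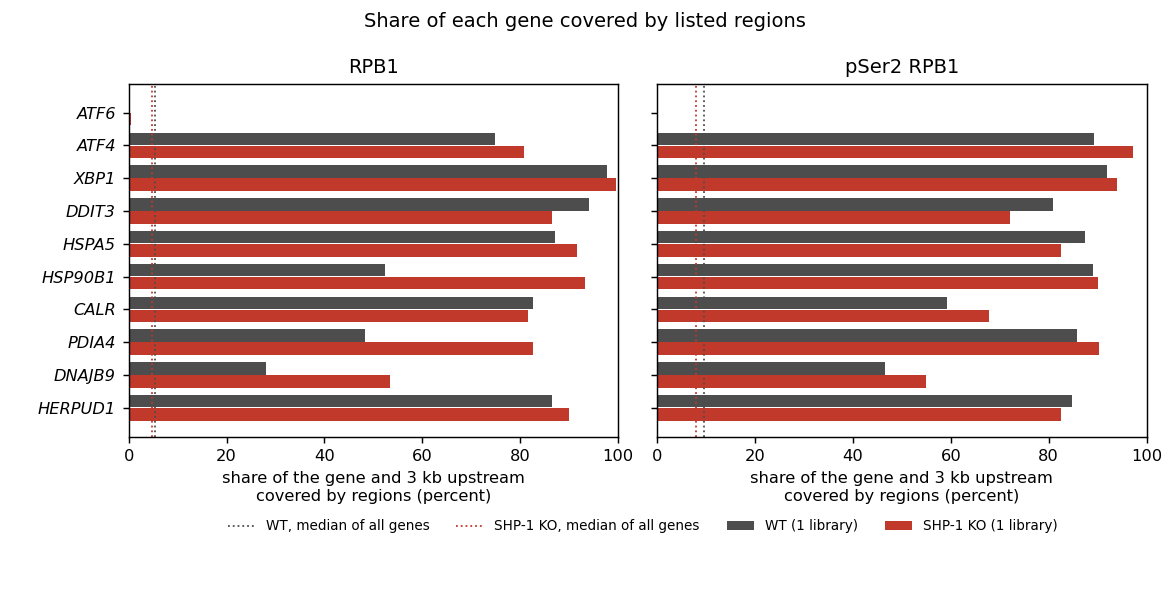
Share of each gene with its 3 kb upstream that is covered by listed regions (x axis, percent), for RPB1 (left) and pSer2 RPB1 (right), with 1 bar per library and dotted lines at the median of all genes. In KO cells the RPB1 bars of HSP90B1, PDIA4 and DNAJB9 are longer than in WT cells, and that of DDIT3 is shorter.

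The second question was whether the strongest region of a gene differed between SHP-1 KO and WT cells. The folds were compared as a ratio and centred on the median of all genes, which was 0.742 for RPB1 and 0.936 for pSer2 under the authors' assignment. With 1 library per group, a gene was called when its centred ratio was past 1.5-fold. For RPB1, 2 of the 8 assigned genes were higher and 0 lower in KO cells, where 11.3% of all genes were called higher and 9.64% lower. The genes were PDIA4, with a centred ratio of 1.64, and DNAJB9, with 1.73 from assigned regions past its 3′ end at fold enrichments of 8.04 and 10.3. For pSer2, 1 of 8 was higher and 3 were lower, where 8.44% of all genes were called higher and 8.35% lower. PDIA4 was higher at 1.80, and HSPA5 at 0.548, ATF6 at 0.575 and HSP90B1 at 0.196 were lower.

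Some of these calls compared different places. The assigned regions of HSP90B1 that were set against each other lay apart, and those of ATF6 lay 6515 and 6540 bp upstream of its start. By position, for RPB1, 1 of 10 genes was higher (PDIA4, 1.69) and 0 were lower, where 8.86% of all genes were called higher and 8.53% lower. For pSer2, 2 of 10 were higher (PDIA4, 1.80, and DDIT3, 1.62) and 1 was lower (HSPA5, 0.548), where 8.99% of all genes were called higher and 9.33% lower. The median centred ratio of the 10 genes was 1.16 for RPB1 and 1.11 for pSer2. For RPB1, 9 of the 10 genes lay above the median of all genes after centring, although 7 of the 10 had a lower fold enrichment in SHP-1 KO than in WT cells before it. For DDIT3 the summits compared lay at opposite ends of the gene, within overlapping regions.

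The counting error of these ratios was wide. The fragments behind each fold could be recovered from the listed fold and p-value, and they gave approximate 95% intervals for the counting error of ChIP and input together. Intervals of the centred ratios by position ran from 0.946 to 3.03 for PDIA4 with RPB1, from 0.998 to 3.25 for PDIA4 with pSer2, from 0.824 to 3.204 for DDIT3 with pSer2 and from 0.224 to 1.34 for HSPA5 with pSer2. All 4 included 1, so none of these calls was larger than counting error alone allows.

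At the pSer2 summit of HSPA5, the lower fold in KO cells stood beside a higher input background and more ChIP fragments. What part the input has in the lower fold was not tested. In WT cells 205 ChIP fragments (exact Poisson 95% interval 178 to 235) covered the summit over a background of 4.57, and in KO cells 312 fragments (278 to 349) covered it, scaled to 265, over a background of 13.0. The background stood for 5 input fragments in WT and 13 in KO cells. Relative to the genome-wide background, the input at this summit was 2.79 times as high in SHP-1 KO as in WT cells, with an interval of 0.933 to 9.99 for counting error. At HSP90B1 there were 6 and 12 input fragments, a ratio of 2.14 (0.745 to 6.97). Over all genes the median of this ratio was 1.00, and it was above 2 at 3.10% of them.

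The pileup of ChIP fragments at the summit was therefore also set against the genome-wide background of its own library, in place of the local input, a comparison added after the data had been seen. For pSer2, HSPA5 then stood at 69.8 in WT and 88.4 in KO cells, a centred ratio of 1.38 (1.15 to 1.65), so its direction turned. HSP90B1 stood at 37.8 and 62.3 (1.79, 1.42 to 2.27), PDIA4 at 17.4 and 33.7 (2.11, 1.51 to 2.99) and DDIT3 at 46.3 and 66.0 (1.55, 1.25 to 1.93). These 3 of 10 genes were called higher and 0 lower, where 9.07% of all genes were called higher and 10.8% lower. For RPB1, PDIA4 stood at 150 and 189 (1.71, 1.37 to 2.15), and it was the only one called of the 10, where 5.21% of all genes were called higher and 6.19% lower. PDIA4 was thus past 1.5-fold with both antibodies in both ways of comparing, but its RPB1 fold ratio before centring was 1.22. The intervals cover the counting error of 1 library each and not the spread between cultures or clones.

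**Figure D4:**
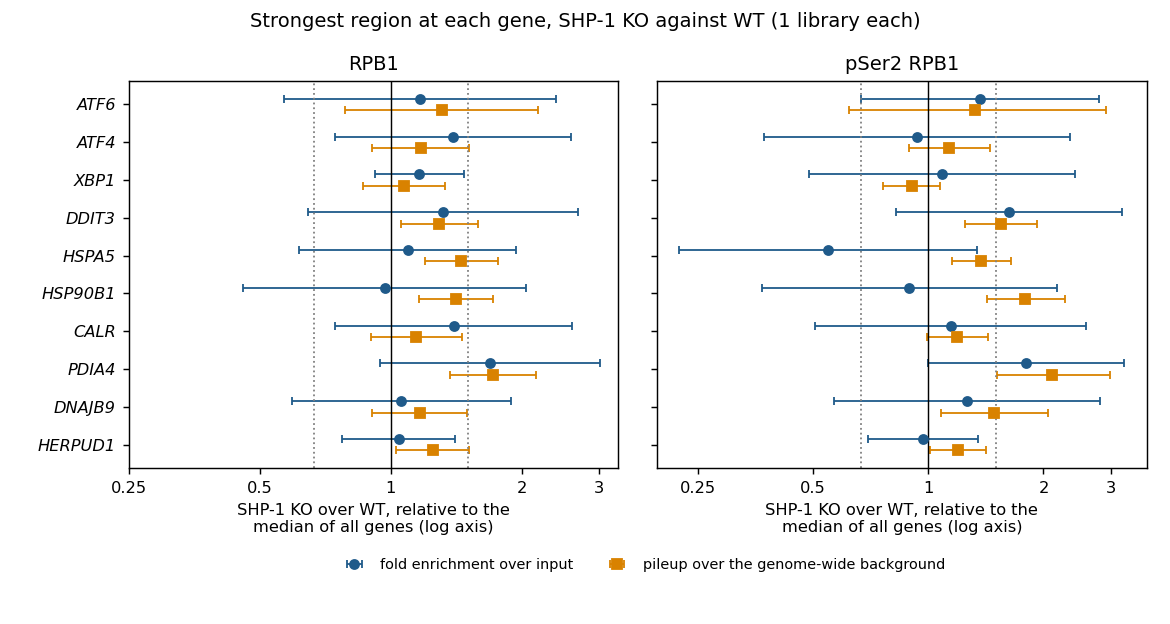
Ratio of SHP-1 KO to WT at the strongest region of each gene by position, relative to the median of all genes (x axis, log scale), for RPB1 (left) and pSer2 RPB1 (right); circles use the fold over local input and squares the pileup over the genome-wide background, bars are 95% intervals for counting error in 1 library each, and dotted lines mark 1.5-fold. PDIA4 lies past 1.5-fold with both measures, and the circle and square of HSPA5 for pSer2 lie on opposite sides of 1.

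The regions of the genes were also compared by overlap. Of the 65 RPB1 regions assigned in WT cells, 59 (90.8%, Wilson 95% interval 81.3 to 95.7) were overlapped by at least 1 bp of an SHP-1 KO region, against 61.9% of all WT regions. Of the 45 assigned in KO cells, 27 (60.0%, 45.5 to 73.0) were overlapped by a WT region, against 74.9% of all. The 18 that were not overlapped had a median fold enrichment of 4.69 and a highest value of 8.98. The median over the whole SHP-1 KO RPB1 list was 5.62. For pSer2, 43 of 54 WT regions (79.6%, 67.1 to 88.2) and 31 of 36 SHP-1 KO regions (86.1%, 71.3 to 93.9) were overlapped, against 52.2% and 69.9% of all regions, and none of the others was above 4.87 in fold enrichment. The Wilson intervals treat regions as independent, which regions of the same gene need not be. Of the 65 WT RPB1 regions, 25 were assigned to PDIA4 and 11 to HSP90B1. At PDIA4, an SHP-1 KO region of 11876 bp overlapped several of them, as did an SHP-1 KO region of 14102 bp at HSP90B1. The regions of the 10 genes were longer than the rest, with a median of 519 bp against 443 bp in the WT RPB1 list. The part of length and of this grouping by gene in the overlap was not tested.

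A wider list of 31 genes of the response was read in the same way under the authors' assignment. These genes were named for their known roles, with earlier results of these data known. For RPB1, 28 genes had a region in both lists, 1 was called higher and 0 lower, where 11.3% and 9.64% of all genes were, and the median centred ratio was 1.16, against 1.00 over all genes by construction. For pSer2, 30 genes had one, 8 were called higher and 2 lower, where 8.44% and 8.35% of all genes were, and the median was 1.195. By role, beside the same shares of all genes, pSer2 was called higher at 4 and lower at 1 of 11 chaperones and folding enzymes. It was called higher at 1 and lower at 0 of 7 degradation factors, and at 0 of 3 sensors. In the ATF4 branch, it was called higher at 3 and lower at 1 of 10 genes, 1 of which could not be compared. The 2 genes called lower, named after their values were seen, were CANX, the membrane-bound relative of calreticulin (0.569), and CEBPB, a transcription factor (0.368). By position the call of CEBPB was lost and its ratio was 1.35. Under the assignment, no gene was called in the same direction with both antibodies. The largest RPB1 ratios were those of OS9, a lectin of ER degradation, at 1.70 with fold enrichments of 16.1 in WT and 20.3 in KO cells, and of PPP1R15A, which restores translation after stress, just under the threshold at 1.495 with 50.1 and 55.6. By position PPP1R15A was called higher with both, at 1.54 for RPB1 and 1.56 for pSer2. The smallest were those of DNAJB11, a BiP co-chaperone, at 0.731 with 51.5 and 28.0, and of SESN2, a stress-induced regulator of growth signals, at 0.746 with 80.7 and 44.7. For pSer2 the ratios of the other genes were 1.199 for OS9, 1.77 for DNAJB11 and 1.597 for SESN2, so DNAJB11 and SESN2 stood below the median of all genes with RPB1 and above it with pSer2.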

How the data were processed

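ChIP-seq regions for RPB1 and pSer2 RPB1 from WT and SHP-1 KO HepG2 cells were used, with 1 library each. The 2 input libraries were not analysed here other than through the background in the lists. Per the submitters' processing notes and the study's methods, the authors ran the MUGQIC pipeline, in which Trimmomatic, BWA (genome hg38) and MACS2 were used, and each peak list was made against input from the matching cell type. Versions are not given in the sources used here. In the deposited lists, a region has a fold enrichment at its summit (a ratio), a −log10 p-value, a −log10 q-value, a score, and the nearest gene and feature that the authors assigned. The authors also deposited a table of differential RPB1 regions with p-values and numbers of windows that went up or down. It holds their own comparison and was not used.

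Regions were counted as listed. All 271336 regions lay within the hg38 chromosome lengths, and 98.1% of the 24850 transcripts named in the lists were in GENCODE release 44. For each region, the whole number of fragments at the summit and the background were solved from the fold, (pileup + 1)/(background + 1), and the Poisson p-value, with a tolerance of 0.01 on −log10 p. This gave a solution for 100% of regions. The pileup scale was 1 in 3 lists and 0.849 in the SHP-1 KO pSer2 list. The background was then read as the fewest whole input fragments over the fragment length, 1 kb or 10 kb, or as the genome-wide value. Intervals of fold ratios were computed on the log scale from the ChIP and input counts, those of pileup ratios and input ratios by the exact conditional method. Intervals cover counting error only. Depth in reads is not given in the lists, and average coverage stands for it.

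The 10 genes and the wider list were chosen with earlier results of these data known. All 10 are named, and of the wider list those called the same way with both antibodies or, with none, the 2 largest ratios in each direction for RPB1. All stretches of sequence equalled the genome at their positions. Decoding, overlap and calling were tested on simulated data. Alternatives were a −log10 q of at least 5, position, merged intervals, no centring, 2-fold, summed signal, reciprocal overlap of 50%, summits within 1 kb of a start and ranking by q. Python 3.11.15, NumPy 2.4.6, pandas 2.3.3, SciPy 1.17.1 and Matplotlib 3.10.9 were used.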

Additional observations from a re-analysis of the deposited data

How the results depend on the processing

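Of the 64 alternative values of the main counts and shares, 33 stayed within 1.5 times of the count, or within the interval of the share, that is reported. With a −log10 q of at least 5, 29 regions of SHP-1 KO RPB1 were left. The calls of the 10 genes depended on the settings. Shares of all genes called were not computed without centring, at 2-fold or with summed signal. Counts under those settings, here and for the wider list, thus have no baseline. For RPB1, higher calls numbered 0 without centring, where 1 was lower, 0 at 2-fold, 7 with summed fold times length, 1 by position, and 1 by position with the pileup over the genome-wide background. The assigned RPB1 regions covered 91.1 kb in WT and 107 kb in SHP-1 KO cells, and the cause of the 7 calls was not tested. For pSer2, higher and lower calls numbered 0 and 1 at 2-fold, 2 and 1 with summed signal, 2 and 1 by position, and 3 and 0 by position with pileup. The last alternative, and both position alternatives of the wider list, were chosen after seeing the data. In the wider list, RPB1 calls numbered 0 higher and 3 lower without centring, and 0 higher at 2-fold. They numbered 3 higher by position and 3 higher with pileup. For pSer2, calls numbered 3 higher and 3 lower without centring, and 1 higher and 1 lower at 2-fold. They numbered 9 higher and 1 lower by position, and 10 higher and 1 lower with pileup. With a reciprocal overlap of 50%, the shares fell to 18.5% of WT RPB1, 26.7% of SHP-1 KO RPB1, 38.9% of WT pSer2 and 55.6% of SHP-1 KO pSer2 regions. This alternative asks for regions of like length. Summits lay within 1 kb of an annotated start at 2 genes in the WT pSer2 list and 1 in the SHP-1 KO pSer2 list.

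On the log2 scale, the pSer2 ratio of ATF6 turned from −0.80 to 0.0900 with summed signal, 0.45 by position and 0.40 with pileup, that of HSPA5 from −0.87 to 0.46 with pileup, and that of HSP90B1 from −2.35 to 0.84 with pileup. For ATF6 and HSP90B1 other regions were compared by position. The ratio of HSP90B1 by position was still below 0, at −0.16, and it turned only with pileup, where the local input also left the comparison. For HSPA5 the region stayed the same and the local input left the comparison. No paired analysis was possible because each group has 1 library. Depth limits the folds, since a local background at several of the genes rests on fewer than 10 input fragments.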
